A study of Mus musculus with 12 samples.

Results

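The transcripts of 37 genes that act in G2 and mitosis were followed in 12 RNA-seq libraries from L929, an established mouse fibroblast line of strain C3H/An. The genes were listed by symbol, as regulators and machinery of mitosis, with earlier results of these data known but with no measured value in the rule. Of the 37, 36 were found in a table of 17571 genes, and all 36 passed the filter of at least 1 FPKM in at least 3 libraries, which left 10412 genes for testing. Ube2c was not analysed here. FPKM, the unit the authors deposited, is the number of fragments per kilobase of transcript scaled to the depth of the library, and differences are given on log2(FPKM + 1).

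The 4 groups held 3 libraries each. Cells labelled mock received the vehicle DMSO, cells labelled BX795 received 0.5 µM of that inhibitor, and the other groups, labelled pEGFP-N1 and BX795 plus pEGFP-N1, received the same vehicle or inhibitor for 1 h before the plasmid pEGFP-N1, which carries EGFP behind a CMV promoter. RNA was collected 6 h after transfection. Whether cells without plasmid received the transfection reagent, and whether libraries of a group came from separate cultures, was not given in the sources used here, so p-values measure only the spread between these libraries. The study used BX795 against TBK1, the kinase that relays cGAS and STING signals, but BX795 also inhibits Aurora B, and the question here was whether mitotic genes shift with BX795 alone or with plasmid.

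Entry into mitosis is driven by cyclin B bound to Cdk1, after Cdc25 phosphatases have removed its inhibitory phosphates. Aurora A and Plk1 build the spindle, Aurora B within the chromosomal passenger complex corrects the attachment of chromosomes to it, and the spindle checkpoint holds back the anaphase-promoting complex until every chromosome is attached. Many of these genes are transcribed mainly in G2 and M, under B-Myb, FOXM1 and NF-Y, and are kept off in G1 by the DREAM complex, which binds the CHR element of their promoters. In bulk RNA, fewer cells in G2 and M and less RNA per such cell cannot be told apart.

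Stretches of 100 bases upstream of 5 of the genes are shown as examples of promoters with the elements that mark this family. They were picked for holding them, from genes that were higher with BX795 (Cdc20, Ccnb2 and Kif11) and genes that differed little (Cdk1 and Top2a), and motif content was not compared between genes of different response. Each ends before both the RefSeq and the GENCODE start, is written 5′ to 3′ on the strand of the gene, and comes from RefSeq on GRCm38.p6. Capitals mark CCAAT, the motif that NF-Y binds, which appears as ATTGG when it lies on the other strand, and TTTGAA, a form of the CHR, which then appears as TTCAAA. The stretch of Cdc20 is chr4:118437353-118437452, minus strand, that of Ccnb2 is chr9:70421555-70421654, minus strand, and that of Kif11 is chr19:37376282-37376381, plus strand. Cdk1 is shown at chr10:69352939-69353038, minus strand, and Top2a at chr11:99024190-99024289, minus strand.
Cdc20: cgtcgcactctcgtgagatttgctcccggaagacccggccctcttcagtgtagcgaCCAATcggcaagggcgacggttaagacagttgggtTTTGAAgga
Ccnb2: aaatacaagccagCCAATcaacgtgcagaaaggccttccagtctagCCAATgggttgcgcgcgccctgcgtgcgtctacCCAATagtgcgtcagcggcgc
Kif11: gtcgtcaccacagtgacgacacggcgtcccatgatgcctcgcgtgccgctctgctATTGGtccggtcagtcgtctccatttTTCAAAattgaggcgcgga
Cdk1: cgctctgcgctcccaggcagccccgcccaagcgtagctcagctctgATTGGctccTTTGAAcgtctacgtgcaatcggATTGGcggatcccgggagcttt
Top2a: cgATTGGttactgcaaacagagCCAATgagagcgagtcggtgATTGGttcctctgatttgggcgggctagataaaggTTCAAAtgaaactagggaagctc

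Of the 36 genes, 28 have a RefSeq promoter window of 250 bases before to 50 after the start. CCAAT was found on either strand in 23 of the 28 (82.1%), against 41.1% of the 27025 genes that have a window. TTTGAA was found in 20 (71.4%), against 20.2% of those genes, TTCGAA, its other form, in 4 (14.3%), against 1.80%, and TTTAAA in 8 (28.6%), against 14.9%. Both CCAAT and either of the first pair of CHR forms were found in 20 of the 28 (71.4%), against 8.61% of those genes. Motifs were counted separately even where their letters could overlap. Cdk1 and Top2a hold both motifs, like Cdc20 and Kif11. Ccnb2 has 3 copies of CCAAT in its stretch, and its copies of TTTGAA lie outside it.

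All 36 genes were expressed in every library, as in a dividing line. Among the libraries labelled mock, per length, Birc5 was highest at 137 ± 1.33 FPKM (SD, n = 3), followed by Cenpa at 114 ± 8.35 and Mad2l1 at 107 ± 3.16, whose spreads overlapped. Cdc25c was lowest, with a mean of 8.39 FPKM, and Bora was next at 12.6 ± 0.388 FPKM. Of 13 fibroblast markers, 11 were in the table and summed to between 5741 and 7389 FPKM, led by S100a4 and Vim, but Thy1 was at most 0.13 FPKM and Dcn was listed at 0 in 10 libraries. The 5 epithelial markers summed to at most 0.65 FPKM and the 4 endothelial markers to at most 0.22. The 6 leukocyte markers summed to between 111 and 138 FPKM, nearly all of it Cd68, which many cell types use in lysosomes, while Ptprc was listed at 0 in 8 libraries.

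Of the transfected libraries, 2 stood apart from the others of their label, in interferon genes as in mitotic genes. Ifit1, an interferon-induced gene, had values of 96.7, 0 and 95.2 FPKM under the label pEGFP-N1 and of 92.6, 0.17 and 0.57 FPKM under the label BX795 plus pEGFP-N1, and was at most 0.45 FPKM in the 6 libraries without plasmid. The library labelled pEGFP-N1 replicate 2 thus lacked the response of the others of its label, and that labelled BX795 plus pEGFP-N1 replicate 1 had it. Whether the labels of these 2 libraries match their cells was not tested, and if they do not, values under both plasmid labels mix treatments. Most limma results that rest on plasmid libraries are given with and without these 2, and exact permutation tests of plasmid libraries only with them. The 2 libraries were picked from their own values, so p-values without them describe the remaining libraries and have no wider meaning. In addition, BX795 plus pEGFP-N1 replicate 3 had an FPKM sum of 467348, against 495030 to 513761 in the other 11.

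The mitotic genes lay near mock in some libraries and above it in others, and the labels of the transfected cells did not separate these. Relative to the mean of mock, the median of the 36 was 0.36, 0.32 and 0.31 on the log2 scale in the BX795 libraries, and between -0.019 and 0.018 in the single mock libraries. With pEGFP-N1 it was -0.087, 0.23 and -0.091, and with BX795 plus pEGFP-N1 it was -0.11, 0.37 and 0.28. The medians of all 10412 tested genes lay between -0.024 and 0.034 in the 12 libraries.

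In the library labelled pEGFP-N1 replicate 2, 31 of the 36 genes were nearer the BX795 mean than the mock mean, against 0 and 1 in replicates 1 and 3 of that label. For BX795 plus pEGFP-N1, 2 genes were nearer the BX795 mean in replicate 1, against 30 in each of replicates 2 and 3. The median of the 36 was therefore high in the 6 libraries with plasmid or inhibitor in which Ifit1 was low, and low in the 3 mock libraries and the 3 libraries where Ifit1 was high.

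**Figure D1:**
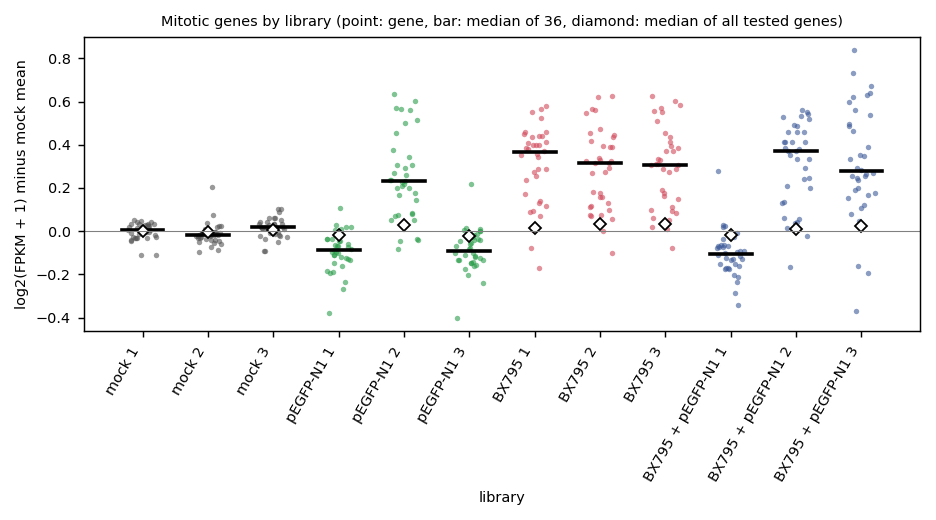
Log2(FPKM + 1) minus the mean of the 3 mock libraries (vertical axis) for the 36 mitotic genes in each of the 12 libraries (horizontal axis), where each point is a gene, bars are medians of the 36 and diamonds are medians of all tested genes. The bars of the 3 BX795 libraries lie between 0.31 and 0.36, that of pEGFP-N1 replicate 2 at 0.23 and that of BX795 plus pEGFP-N1 replicate 1 at -0.11, while every diamond is between -0.024 and 0.034.

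**Figure D2:**
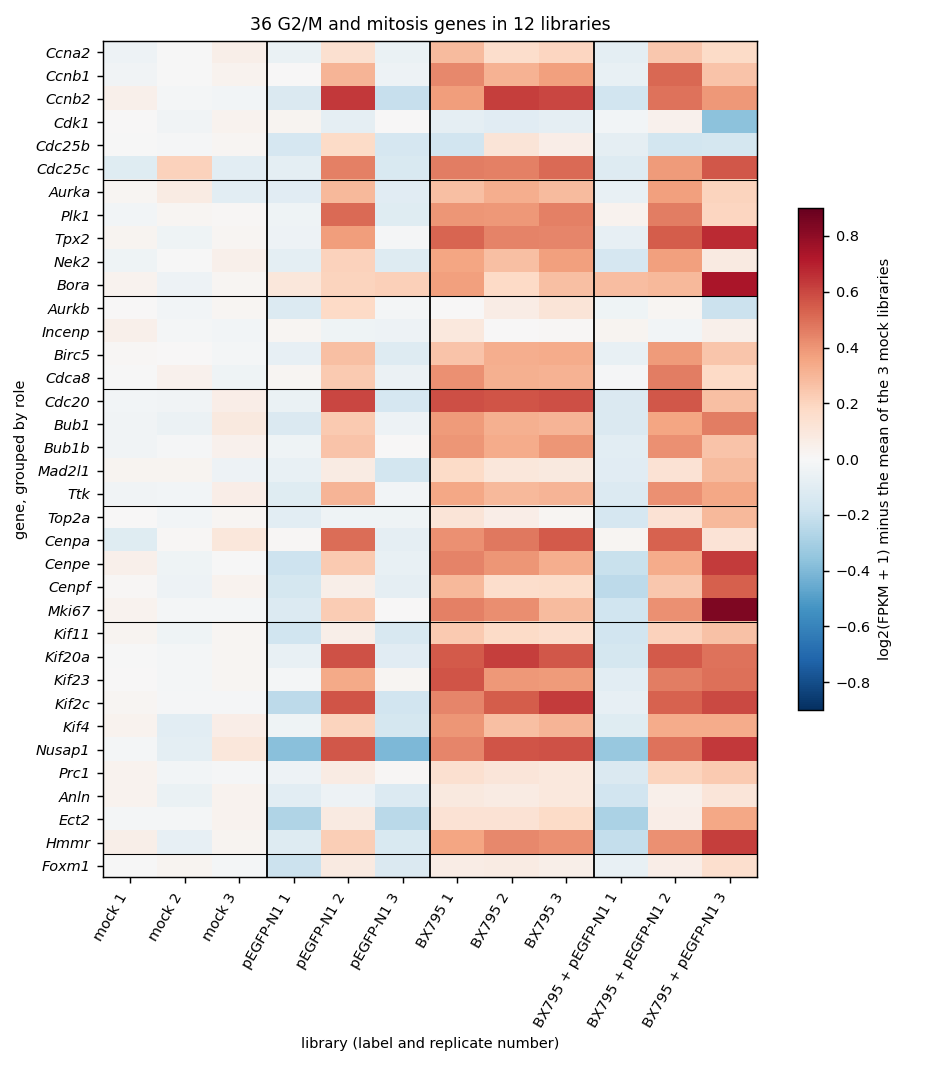
The same differences from the mock mean as colours, with the 36 genes in rows grouped by role and the 12 libraries in columns. Most rows are red in all 3 BX795 libraries, in pEGFP-N1 replicate 2 and in BX795 plus pEGFP-N1 replicates 2 and 3. The paler rows in the BX795 libraries include Cdk1, Cdc25b, Incenp, Aurkb, Top2a, Foxm1 and Anln, while Cdk1 is blue in BX795 plus pEGFP-N1 replicate 3.

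With BX795 alone, most of the mitotic genes were higher than in mock by a modest amount. Of the 36, 35 were higher, where 56.9% of all tested genes were, with a median difference of 0.33 against 0.028 for all tested genes. The differences ran from -0.085 for Cdk1 to 0.58 for Kif20a, a 1.49-fold difference. For 32 genes every BX795 library was above every mock library, where 23.6% of tested genes were so placed. Only Cdk1 had every BX795 library below every mock library (16.2% of tested genes), and Aurkb, Incenp and Cdc25b overlapped.

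Whether these differences passed a test depended on the libraries that set the spread. The limma fit of all 12 libraries called 0 of the 36 at an adjusted p under 0.05 (adjusted p from 0.244 to 0.996), where 0.0384% of tested genes were called higher and 0.0288% lower. At an unadjusted p under 0.05 it had 22 of the 36, all higher, against 8.45% of tested genes higher and 5.4% lower. That fit takes its spread from all 4 groups, including the plasmid groups with a library that stood apart. The limma fit of the 6 mock and BX795 libraries called 27 of the 36, all higher, against 12.7% of tested genes higher and 7.97% lower. The fit of 10 libraries, without the 2 that stood apart, called 24, all among those 27, against 9.02% of tested genes higher. The exact permutation test of 3 libraries against 3 gave p = 0.1, the smallest it allows, for 33 of the genes (two-sided).

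In the following, "rose" is used only for genes called by the limma fit of the 6 mock and BX795 libraries, and p-values in the next paragraphs are adjusted p-values of that fit. In the fit of all 12 libraries none of these genes was called. The size of a difference is the same in both fits, and only its interval changes.

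**Figure D3:**
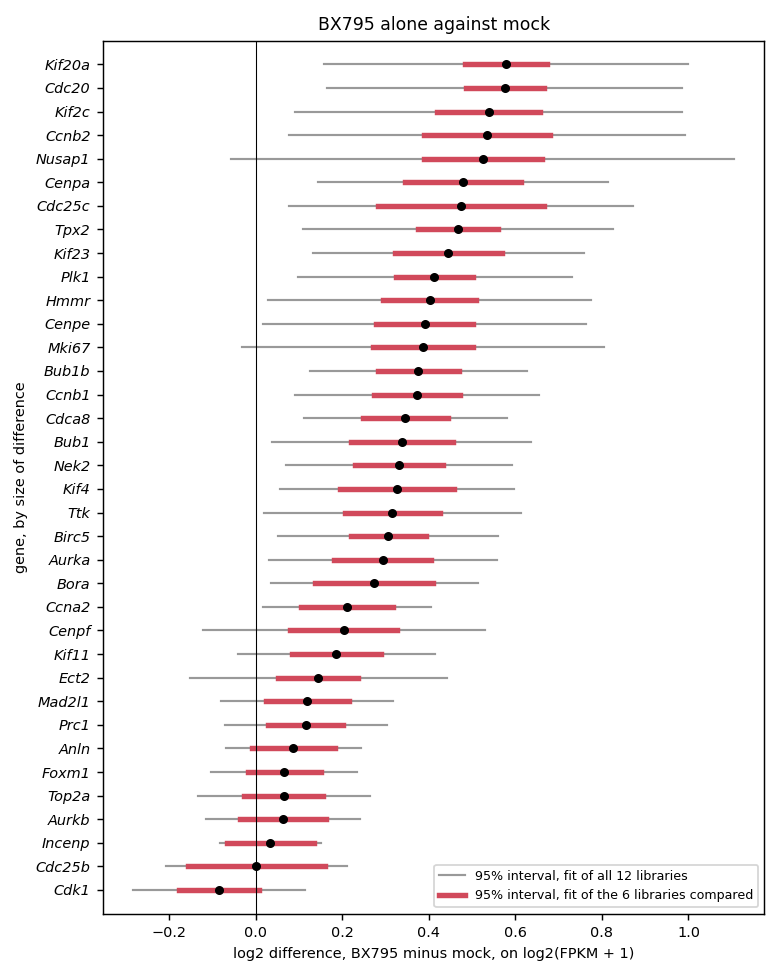
Log2 difference of BX795 minus mock on log2(FPKM + 1) (horizontal axis) for the 36 mitotic genes, ordered by size, with the 95% interval from the limma fit of all 12 libraries (thin grey) and from the fit of the 6 libraries compared (thick red). The points run from -0.085 for Cdk1 to 0.58 for Kif20a, and the red intervals of 29 genes lie above 0.

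The B-type cyclins rose and their kinase did not. Ccnb1, cyclin B1 (chromosome 13, 100778650 to 100786570 of GRCm38), had 62.5, 63.7 and 65.4 FPKM in mock, compared with 86.6, 79.7 and 82.7 with BX795. It rose by 0.37 on the log2 scale (standard error 0.044, limma adjusted p = 0.000828, and 0.282 in the fit of all 12 libraries). The value is uncertain in part. Of the 31-base words of its coding transcripts, 45.9% also occur in transcripts of other genes, most often of the pseudogene Ccnb1-ps. Ccnb2, cyclin B2, rose by 0.53, and Ccna2, cyclin A2, which acts in S and G2, rose by 0.21, from 101, 103 and 108 FPKM to 127, 116 and 119.

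Cdk1, the kinase that these cyclins activate (chromosome 10, 69335146 to 69352938), had 34.6, 33.9 and 35.4 FPKM in mock, compared with 32.7, 32.2 and 32.7 with BX795. Its libraries did not overlap, but the difference of -0.085 was not called in either fit (adjusted p = 0.163 and 0.658), and its interval in the fit of the 6 libraries ran from -0.18 to 0.007. The phosphatases that activate Cdk1 differed from each other in value: Cdc25c rose by 0.48, from a mean of 8.39 to 11.98 FPKM, and Cdc25b had a difference of 0.001 with an interval from -0.16 to 0.16. The difference between the pair was not tested.

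The genes of Aurora A and Plk1 all rose, against 12.7% of tested genes. Aurka, Aurora A (chromosome 2, 172356190 to 172370535), had 69.3, 72.1 and 64.1 FPKM in mock, compared with 82.8, 85.9 and 83.7 with BX795, and rose by 0.29 (limma adjusted p = 0.00482). Tpx2, which activates Aurora A on the spindle, went from 104, 99.7 and 103 to 147, 140 and 139 FPKM and rose by 0.47 (limma adjusted p = 0.000196). Plk1, the Polo kinase (chromosome 7, 122159439 to 122169873), had 64.4, 66.6 and 66.2 FPKM in mock, compared with 86.8, 86.3 and 90.6 with BX795, a rise of 0.41 (limma adjusted p = 0.000286). The BX795 libraries of all 3 genes were above all mock libraries, as those of 23.6% of tested genes were.

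Bora, which helps Aurora A to activate Plk1, had 12.9, 12.1 and 12.7 FPKM in mock, compared with 16.5, 14.4 and 15.4 with BX795. It rose by 0.27 (limma adjusted p = 0.0146), but was not called once the 2 libraries were left out (0.0904). Nek2, a kinase that separates the centrosomes, rose by 0.33.

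Within the chromosomal passenger complex, which holds the kinase that BX795 also inhibits, 2 of the 4 genes rose, where 12.7% of tested genes were called higher in that fit. Aurkb, Aurora B itself (chromosome 11, 69045647 to 69051664), had 40.4, 39.5 and 40.7 FPKM in mock, compared with 40.3, 42.2 and 43.5 with BX795. Incenp, the scaffold of the complex (chromosome 19, 9872296 to 9899551), had 54.0, 51.5 and 51.3 FPKM in mock, compared with 55.8, 52.3 and 52.7 with BX795. In both genes the groups overlapped. The difference of Aurkb was 0.063, with a 95% interval from -0.037 to 0.16 in the fit of the 6 libraries and from -0.12 to 0.24 in the fit of 12. That of Incenp was 0.034, with an interval from -0.066 to 0.14 in the fit of the 6.

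Birc5, survivin (chromosome 11, 117849251 to 117855743), had 137, 137 and 135 FPKM in mock, compared with 163, 172 and 172 with BX795. It rose by 0.31 (limma adjusted p = 0.00109). Cdca8, borealin (chromosome 4, 124918465 to 124939311), went from 72.4, 74.7 and 70.8 to 96.8, 90.7 and 90.3 FPKM and rose by 0.35 (limma adjusted p = 0.00114). Whether these 2 genes differed from Aurkb and Incenp in their response was not tested.

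**Figure D4:**
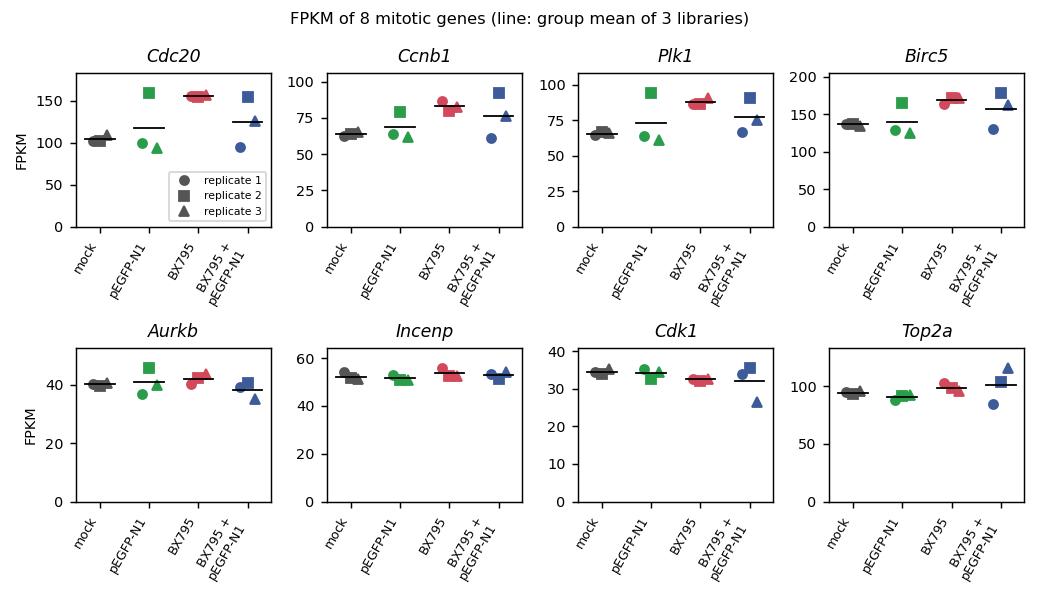
FPKM (vertical axes, starting at 0) of 8 mitotic genes in the 4 groups, with a symbol for each library by replicate number and a line at the mean of each group. Cdc20, Ccnb1, Plk1 and Birc5 are higher in the 3 BX795 libraries and in pEGFP-N1 replicate 2 than in any mock library, whereas Aurkb overlaps between mock and BX795, as does Incenp, and Cdk1 and Top2a lie close to mock with BX795 alone but depart from it in BX795 plus pEGFP-N1 replicate 3, at 26.6 and 116 FPKM.

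Of the 5 spindle checkpoint and anaphase-promoting genes, 4 rose, against 12.7% of tested genes. Cdc20, the activator of the anaphase-promoting complex (chromosome 4, 118432901 to 118437352), had 102.5, 102 and 109 FPKM in mock, compared with 156, 155 and 157 with BX795. It rose by 0.58, or 1.49-fold (standard error 0.040, limma adjusted p = 7.94e-05, and 0.266 in the fit of all 12 libraries). Of the 31-base words of its coding transcripts, 27.4% also occur in transcripts of other genes, most often of Gm7856, so its value is uncertain in part. Bub1b, which encodes BubR1, went from 41.9, 42.5 and 44.1 to 56.7, 54.4 and 56.7 FPKM, a rise of 0.38, and had the smallest p of the 36 genes in the fit of all 12 libraries (unadjusted p = 0.00672, adjusted p = 0.244).

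Bub1 rose by 0.34 and Ttk, the checkpoint kinase Mps1, by 0.32. Mad2l1, or Mad2, was not called, at 0.12 (limma adjusted p = 0.077). Each of these 5 genes had all BX795 libraries above all mock libraries, as 23.6% of tested genes did.

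At the centromere and on chromosomes, 4 of 5 genes rose, against 12.7% of tested genes. Cenpa, the histone H3 variant of centromeres (chromosome 5, 30666777 to 30674830), had 105, 114 and 122 FPKM in mock, compared with 152, 158 and 167 with BX795, a rise of 0.48 (limma adjusted p = 0.00104). Mki67, the gene of the proliferation marker Ki-67 (chromosome 7, 135689784 to 135716361), went from 54.0, 52.2 and 52.3 to 72.9, 70.8 and 64.7 FPKM and rose by 0.39 (limma adjusted p = 0.0014). Cenpe, a kinetochore motor, rose by 0.39, and Cenpf, a large kinetochore protein, by 0.20, although Cenpf was not among the 24 called without the 2 libraries. Top2a, which untangles sister chromatids, had 94.7, 93.0 and 95.7 FPKM in mock, compared with 102.5, 98.3 and 95.8 with BX795, and its difference of 0.065 was not called (limma adjusted p = 0.277).

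Of the 10 genes for kinesins, spindle proteins and cytokinesis, 8 rose, against 12.7% of tested genes, and all 10 were higher, against 56.9%. Kif20a, which carries the passenger complex to the midzone, rose by 0.58, and Kif23, of the centralspindlin complex, by 0.45. Kif2c, a microtubule depolymerase, rose by 0.54 and Nusap1, which bundles spindle microtubules, by 0.52, followed by Hmmr at 0.40, the chromosome motor Kif4 at 0.33, the spindle motor Kif11 at 0.19 and Ect2 at 0.14. Ect2, which activates RhoA at the cleavage furrow, was not called without the 2 libraries (limma adjusted p = 0.178).

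Kif20a went from 30.3, 30.1 and 30.9 to 45.0, 47.5 and 45.3 FPKM. Prc1, which bundles midzone microtubules, and Anln, which binds actin at the furrow, were not called (0.12 and 0.087, limma adjusted p = 0.062 and 0.166). Foxm1, a transcription factor of many of these genes (chromosome 6, 128362967 to 128376146), had 59.6, 60.9 and 58.9 FPKM in mock, compared with 62.8, 63.1 and 62.1 with BX795. Its difference of 0.066 was not called either (limma adjusted p = 0.235). The libraries of Prc1, Anln and Foxm1 did not overlap between the groups.

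With pEGFP-N1 against mock, 0 of the 36 genes were called by limma in the fit of all 12 libraries, and 0 passed an unadjusted p of 0.05. Of all tested genes, 0.0672% were called higher and 0% lower, and 2.57% and 2.11% passed the unadjusted p. The fit of the 6 libraries compared also called 0, with 1 gene higher at an unadjusted p under 0.05, against 3.06% of tested genes higher and 3.35% lower. The median of the 36 was 0.017, 23 were higher, where 49.1% of tested genes were, and the differences ran from -0.14 for Ect2 to 0.17 for Bora.

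Bora was the only one with every pEGFP-N1 library above mock, at 13.6, 14.6 and 14.7 FPKM (5.52% of tested genes), and Top2a the only one with every library below, at 88.4, 92.0 and 92.1 FPKM (7.41% of tested genes). Neither was called (limma adjusted p = 0.9997 for both). Replicate 2 of this label was above the mock mean in 32 of the 36 genes and above the mean of replicates 1 and 3 in 34. Cdc20 was at 100.1, 159 and 94.0 FPKM, Plk1 at 64.1, 94.2 and 60.8, and Ccnb1 at 64.1, 79.2 and 61.9. Cenpa was at 114, 161 and 107 FPKM. Aurkb was also highest in replicate 2, at 36.8, 45.6 and 39.7 FPKM.

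Without the 2 libraries, the median of pEGFP-N1 minus mock was -0.092 and 34 of 36 genes were lower, where 43.1% of tested genes were higher. All remaining pEGFP-N1 libraries were below all mock libraries for 20 of the genes, against 30.6% of tested genes, and above for 1, against 21%. The limma fit of the 10 libraries called 1 of the 36, lower (1.34% of tested genes), and 6 passed an unadjusted p of 0.05, against 11.1% of tested genes lower. The gene called was Nusap1, with 26.6, 25.3 and 28.9 FPKM in mock, compared with 20.4 and 20.1 in the remaining pEGFP-N1 libraries, a difference of -0.39 (limma adjusted p = 0.0157). Ect2 had -0.25 and Foxm1 -0.16 (limma adjusted p = 0.0994 and 0.12), and Anln had 56.7, 53.2 and 56.9 FPKM in mock, compared with 52.0 and 50.9 in those libraries.

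With plasmid added to BX795, 0 of the 36 genes were called against BX795 alone, and 0 passed an unadjusted p of 0.05 in the limma fits of all 12 or of the 6 libraries. Of tested genes, 0% were called in either direction, and at the unadjusted p 1.96% were higher and 3.6% lower in the fit of 12 and 2.39% and 4.54% in that of 6. The median was -0.13 and 34 genes were lower, with 43.8% of tested genes higher. Cdc20, at 95.4, 154 and 126 FPKM, was the only one whose libraries did not overlap those of BX795 alone (lower, as in 6.66% of tested genes), with a difference of -0.34 (limma adjusted p = 0.604).

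Replicate 1 of this group was lower than the mean of replicates 2 and 3 in all but 4 of the 36 genes. It had 60.9 FPKM of Ccnb1, where replicates 2 and 3 had 92.0 and 76.3, and 67.1 of Plk1, where they had 90.7 and 75.2. For Birc5 the group had 130, 178 and 162 FPKM, for Aurka 65.2, 88.6 and 78.8, and for Cdca8 72.2, 100.3 and 82.3. Nek2 was at 44.7, 64.7 and 52.7 FPKM. Bora had its highest mean in this group, with 15.5, 15.6 and 21.5 FPKM.

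Without the 2 libraries, the median of BX795 plus pEGFP-N1 minus BX795 was 0.012, with 20 genes higher and 16 lower. Of tested genes, 47.1% were then higher. The limma fit called 0, as for all tested genes, and 3 of the 36 passed an unadjusted p of 0.05, all higher, against 5.83% of tested genes. Ttk, Top2a, Tpx2 and Prc1 had the remaining libraries above all BX795 libraries, 4 of 36 against 7.35% of tested genes, and Cdc20 had them below (10.4%). Top2a was at 103 and 116 FPKM in those 2 libraries, and Mki67 at 70.7 and 95.2.

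In replicate 3 of that group, the library with the low FPKM sum, most of the longer genes were higher and most of the shorter ones lower. Length here is that of the longest annotated coding transcript. Against replicate 2, the 18 genes of up to 3366 bases had a median difference of -0.12, with 12 lower. The 18 longer genes had a median of 0.12, with 3 lower. Exceptions were large, with Bora at 0.44 among the shorter and Cdk1 at -0.405 among the longer genes. Other genes were not split by length. Mki67 and Top2a are among the longer ones. Between BX795 and mock the medians were alike, at 0.32 for the shorter and 0.33 for the longer genes.

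BX795 was also compared in cells with plasmid. Against pEGFP-N1, BX795 plus pEGFP-N1 gave 0 called genes in the limma fit of all 12 libraries (0% of tested genes in either direction), and 1 at an unadjusted p under 0.05 (0.749% of tested genes higher). That gene was Bora, 0.26 higher, which was also the only one whose libraries did not overlap (1.39% of tested genes). The median was 0.15, with 33 genes higher where 52.8% of tested genes were. The fit of the 6 libraries called 0, with 0 at the unadjusted p.

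When the 2 libraries were left out, 30 of the 36 genes were called higher, against 10.5% of tested genes, with a median of 0.40. The remaining BX795 plus pEGFP-N1 libraries were above the remaining pEGFP-N1 libraries for 32 genes, against 33.7% of tested genes, and below for Cdc25b alone (23.7%). Nusap1 had the largest difference at 0.95, with 38.1 and 42.4 FPKM against 20.4 and 20.1 (limma adjusted p = 3.33e-05). Kif20a differed by 0.60, Mki67 by 0.69, Cdc20 by 0.52 and Plk1 by 0.40. Foxm1 and Top2a, not called with BX795 alone, differed by 0.27 and 0.28 (limma adjusted p = 0.00968 and 0.0168). Aurkb had -0.019 with an interval from -0.19 to 0.15, Incenp 0.025 and Cdk1 -0.18, and these 3 were not called.

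Averaged over cells without and with plasmid, BX795 gave 0 called genes in the limma fit of all 12 libraries, as for all tested genes, but 25 of the 36 were higher at an unadjusted p under 0.05, against 6.76% of tested genes higher and 4.56% lower. The median was 0.24 and 33 were higher, where 56% of tested genes were. Bora had the smallest p (difference 0.27, unadjusted limma p = 0.00497, adjusted p = 0.338), and in the exact permutation test within plasmid groups it alone reached 0.005, the smallest p that test allows. That test, with no adjustment for the number of genes, was under 0.05 for 7 of the 36 (Bora, Cdca8, Kif4, Tpx2, Mki67, Bub1 and Bub1b) and for 8.53% of tested genes in either direction. Cdk1, Cdc25b and Aurkb were the 3 that were lower, at -0.093, -0.045 and -0.011, and none of them was called (limma adjusted p = 0.552, 0.768 and 0.94).

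The fit without the 2 libraries called 32 of the 36 for the same average, against 20% of tested genes higher, with a median of 0.36. The 4 not called were Aurkb, Incenp, Cdk1 and Cdc25b. Aurkb had 0.022 with a 95% interval from -0.086 to 0.13, and Cdk1 -0.13 with an interval from -0.28 to 0.013.

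The plasmid averaged over cells without and with BX795 gave 0 called genes in the limma fit of all 12 libraries and 0 at an unadjusted p under 0.05 (0% and 3% of tested genes higher, 0% and 3.12% lower), with a median of -0.049 and 4 genes higher, where 43.3% of tested genes were. The exact permutation test within BX795 groups was under 0.05 for 2 genes, Bora (0.17 higher, p = 0.03) and Anln (-0.092, p = 0.045), with no adjustment for the number of genes, and for 5.06% of tested genes. The difference between the plasmid effects with and without BX795, the interaction, was called for 0 genes and passed an unadjusted p of 0.05 in 0 (1.51% of tested genes higher and 2.4% lower). Its median was -0.14. It was -0.47 for Cdc20 and -0.40 for Cenpa, with limma adjusted p = 0.842 for both. Without the 2 libraries the median interaction was 0.10, again with 0 called, and 9 genes were higher at the unadjusted p, against 4.49% of tested genes.

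Other mitotic genes were mostly higher with BX795 as well. Of 69 tested genes of the wider mitotic machinery, 58 were higher with BX795 than in mock, where 56.9% of tested genes were, with a median of 0.23, and the fit of the 6 libraries called 46 higher and 4 lower, against 12.7% and 7.97% of all tested genes. The fit of all 12 called 0, with 30 higher and 3 lower at an unadjusted p under 0.05, against 8.45% and 5.4%. By that p they were led by Psrc1, a microtubule regulator, at 0.85 and Cep55, which acts in abscission, at 0.46 (limma adjusted p = 0.144 and 0.193). In the single libraries the median of the list was 0.27, 0.23 and 0.26 with BX795, 0.19 in pEGFP-N1 replicate 2 and -0.11 in BX795 plus pEGFP-N1 replicate 1.

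Subunits and regulators of the anaphase-promoting complex and of cohesin had a median of 0.025 over 22 genes. The fit of the 6 libraries called 6 of them higher and 1 lower, against 12.7% and 7.97% of tested genes. The fit of 12 called 0, with 1 in each direction at an unadjusted p under 0.05, no more than the 8.45% and 5.4% of all tested genes: Cdc23, a subunit of the complex, at 0.22, and Fbxo5, its inhibitor Emi1, at -0.23. The DREAM complex with B-Myb had a median of -0.022 over 12 genes, with 0 called higher and 3 lower in the fit of the 6 libraries, against the same 12.7% and 7.97%. The fit of 12 called 0 of them, and E2f4 at -0.25 and Tfdp1 at -0.22 were lower at an unadjusted p under 0.05 (limma adjusted p = 0.322 and 0.323).

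Genes that hold back Cdk1 or arrest cells in G2 were higher too. Of 13 tested, 11 were higher with BX795, where 56.9% of tested genes were, with a median of 0.32, and the fit of the 6 libraries called 9, all higher, against 12.7% of tested genes. The fit of 12 called 0, with 6 higher at an unadjusted p under 0.05, against 8.45%. Gadd45b, a stress-induced gene of growth arrest, had the smallest p in the fit of 12, with a difference of 0.75 (limma adjusted p = 0.0845), and Gadd45g, with a difference of 0.27, had the next smallest p (limma adjusted p = 0.167). By library the median of this list was 0.33, 0.35 and 0.36 with BX795 and 0.36 in pEGFP-N1 replicate 2, so it was high where the mitotic genes were high.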

How the data were processed

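Total RNA of 12 L929 libraries was sequenced on the BGISEQ-500 platform. Per the labels and methods, the authors aligned reads to GRCm38.p5 with Bowtie2 2.2.5 and estimated expression with RSEM. What the authors deposited is FPKM per Entrez identifier, with 2 decimals. RSEM divides reads that fit several genes, so pseudogenes can take or give reads. FPKM keeps no read totals, so neither depth nor counting error can be given. Of 17571 identifiers, 17450 were named through a RefSeq table.

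Groups came from sample titles. log2(FPKM + 1) was fitted with limma 3.58.1 (R 4.3.3, 4 group means, trended empirical Bayes) for 10412 genes with at least 1 FPKM in at least 3 libraries. The p-values were adjusted by Benjamini-Hochberg over all of them, and called means an adjusted p under 0.05. Single genes were also tested by exact permutation of library labels. The study's own test needs read counts, which were not used here, and its thresholds (false discovery rate 0.001, log2 fold change 2) were an alternative. The others were no filter, pseudocounts of 0.1 and 0.01, a mean of at least 5 FPKM, rescaling to TPM, the 75th percentile, quantile normalization, median centring, no trend, a fit of the compared groups, the replicate number as a block, and leaving out single libraries or 2 together. The fit was tested on simulated data. Tables were read with Python 3.11.15 and pandas 2.3.3.

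The members, lists and tests were chosen with earlier results of these data known. Values by library were given for a fixed set of members (the passenger complex, Aurka, Bora, Tpx2, Plk1, Ccnb1, Cdk1, Ccna2, Cdc20, Top2a, Mki67 and Foxm1) and for any called in the fit of all 12 libraries. They were also given for most of the 3 with the smallest p in each direction of the main contrasts. Not every group is printed for each of these genes. Those of Kif20a, Nusap1 and Nek2, and the pseudogene overlaps, partly extend that rule. Coordinates are from GENCODE on GRCm38. Shared 31-base words were counted over its transcripts, against those of all other genes together.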

Additional observations from a re-analysis of the deposited data

How the results depend on the processing

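FPKM gives no depth, so counting error is not covered. In this section, the share of all tested genes stands beside only some counts. A count without that share shows only how far the result moved, and is no result about the mitotic genes. In BX795 minus mock the median of the 36 mitotic genes lay between 0.30 and 0.35 under all 24 alternatives and 34 or 35 genes were higher. The count called, 0 of 36, was 27 in the fit of only the groups compared and 24 without the 2 libraries (pEGFP-N1 replicate 2 and BX795 plus pEGFP-N1 replicate 1). It was 0 to 1 when single libraries were left out (1 without pEGFP-N1 replicate 2, where 90 of 10392 tested genes were called higher and 66 lower), and 11 to 27 genes then passed an unadjusted p of 0.05, the fewest without BX795 replicate 3 and 13 without mock replicate 3. At the study's thresholds 0 genes were called in every contrast. For the other contrasts, counts are at an adjusted p and then at an unadjusted p under 0.05. For pEGFP-N1 minus mock they were 1 and 6 without the 2 libraries, 0 and 1 in the fit of only the groups compared, and 0 and 0 to 1 with single libraries left out. For BX795 plus pEGFP-N1 minus BX795 they were 0 and 3 without the 2, and 0 and 0 to 6 with single libraries left out (6 without BX795 plus pEGFP-N1 replicate 2). For BX795 plus pEGFP-N1 minus pEGFP-N1 they were 30 and 32 without the 2 (median 0.40). Of all tested genes, 10.5% and 21.1% were then higher and 7.25% and 14.6% lower. The counts were 0 and 0 in the fit of only the groups compared. With single libraries left out they were 0 and 0 to 27 (18 without pEGFP-N1 replicate 2, 27 without BX795 plus pEGFP-N1 replicate 1). For BX795 averaged over plasmid 32 were called without the 2, and with single libraries left out 0 to 17 were called (16 without pEGFP-N1 replicate 2, where 555 of 10392 tested genes were called higher, and 17 without BX795 plus pEGFP-N1 replicate 1, where 232 of 10370 were) and 13 to 32 passed the unadjusted p (13 without pEGFP-N1 replicate 1 or BX795 plus pEGFP-N1 replicate 2). For the plasmid averaged over BX795 the unadjusted count was 1 with quantile normalization, 1 with median centring and 1 with the replicate block. That count was 6 of 36 without the 2, where 10.1% of tested genes were higher and 14.6% lower, and 0 to 4 with single libraries left out. For the interaction the unadjusted count was 1 with the replicate block, 9 without the 2 (median 0.10) and 0 to 6 with single libraries left out. The difference of Cdc25b between BX795 and mock turned negative under TPM (-0.012), the 75th percentile (-0.009), quantile normalization (-0.006) and median centring (-0.023), and was -0.055 to 0.088 with single libraries left out. Averaged over plasmid, with single libraries left out, Cdc25b was -0.073 to 0.008 (positive without pEGFP-N1 replicate 2) and Aurkb -0.045 to 0.03 (positive without pEGFP-N1 replicate 2, BX795 replicate 1 or BX795 plus pEGFP-N1 replicate 3), and Aurkb was 0.022 without the 2. Why single libraries move these counts was not tested. Whether the replicate numbers pair the libraries could not be decided. Deviations of same-numbered libraries from their group means correlated between -0.39 and 0.64 across genes, over 0.1 in 6 of 18 pairs. Their mean was 0.116, against -0.065 for libraries of different number. In the plasmid groups, the 2 libraries that stood apart shift the group mean and with it every deviation. With the replicate block 0 of the 36 were called in BX795 minus mock and 23 passed the unadjusted p.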

Other observations

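Genes of G1/S and DNA replication, the other side of the proliferation programme, had the opposite sign. Of 33 tested, 30 were lower with BX795 than in mock, where 56.9% of all tested genes were higher. Their median was -0.18, and 14 were lower at an unadjusted limma p under 0.05, against 5.4% of tested genes. The limma fit of all 12 libraries called 0 of them, and the fit of the 6 mock and BX795 libraries called 16 lower and 1 higher, against 7.97% and 12.7% of tested genes. Cdc6, which loads the replicative helicase, had a difference of -0.81 and Ccnd1, cyclin D1, of -0.62 (limma adjusted p = 0.167 and 0.219 in the fit of 12). In pEGFP-N1 replicate 2 the median of these 33 genes was -0.25, and in BX795 plus pEGFP-N1 replicate 1 it was -0.019, where the mitotic genes were at 0.23 and -0.11.

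Of 11 tested immediate-early and growth response genes, Errfi1, a feedback inhibitor of the EGF receptor, was lower with BX795 by limma in the fit of all 12 libraries (-0.77, adjusted p = 0.011). By unadjusted p it was followed by Ier3, at -0.62 (adjusted p = 0.145). Dusp6, a phosphatase of ERK, had the largest difference of the list at -1.34 (adjusted p = 0.187). The fit of the 6 libraries called 2 of the 11 higher and 5 lower, against 12.7% and 7.97% of tested genes. The median of the list was -0.24, and by library it was 0.011, -0.25 and -0.26 with BX795, so that replicate 1 lay near mock.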
